A study of Mus musculus with 14 samples.

Results

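The 9 genes described here code for chaperones of the cytosol and of mitochondria: Hspa1l, Hspa4, Hspa4l, Hspa8, Hsp90aa1, Hsp90ab1, Hsph1, Hspd1 and Hspe1. They were chosen by symbol, and all 9 were found among the 25965 gene symbols of the table. Chaperones bind unfolded protein and use ATP to help it fold. HSP70 proteins such as Hspa8 do this with J domain partners and with exchange factors, the larger relatives Hspa4, Hspa4l and Hsph1 release the nucleotide from HSP70, and HSP90 proteins take over later clients such as kinases and receptors. Germ cells of the mouse add their own forms: Hspa1l is the HSP70 of spermatids, Hspa2 that of spermatocytes, and Hspa4l is abundant from meiosis onwards.

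The 14 libraries came from adult male mice that carried the X-linked gene Tsga8 (genotype Tsga8+/Y, here control) or lacked it (Tsga8-/Y, knockout). Whole adult testis gave 3 control and 3 knockout libraries. Laser capture microdissection, which cuts chosen cells out of a tissue section, gave 2 control and 2 knockout libraries of round spermatids of steps 4 to 8, and 2 and 2 of a region with round spermatids of steps 1 to 3 and elongated spermatids of steps 9 to 16. The study asked what Tsga8 does for spermatid shaping and male fertility. According to the series text, 2 or 3 animals were used as replicates, and no label tells which captured libraries share an animal. The labels also do not say which part of Tsga8 was removed or what strain the mice were. Whole testis holds every germ cell stage and all somatic cells, so in it fewer cells of a type and less RNA per cell cannot be told apart. Tsga8 itself was between 88.6 and 106 RPKM in control whole testis and between 2.12 and 3.20 RPKM in knockout whole testis. In captured tissue of steps 4 to 8 it was 239 and 193 RPKM in controls and 2.18 and 3.76 RPKM in knockouts. In the other region it was 56.9 and 209 RPKM in controls and 9.42 and 6.96 RPKM in knockouts. RPKM is reads per kilobase of gene span (introns included), divided by the reads of the library. A whole testis library rested on 30388500 to 49147300 reads, and a captured library on 23467200 to 72022300. Whole testis and captured RNA were made into libraries with different kits, so levels in them are set side by side and not tested. Captured libraries varied more. For the median gene, replicates of a captured group had an SD of 0.299 to 0.439 (log2), and those of a whole testis group 0.091 to 0.105.

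Marker genes of the captured cells were present in every captured group. The 10 round spermatid markers summed to 770 to 829 RPKM in control tissue of steps 4 to 8 and to 563 to 757 RPKM in control tissue of steps 1 to 3 and 9 to 16. Their median log2 difference, the second region minus the first, was -1.225 in controls, against 0.039 for all tested genes, with 0 called. Spermatocyte markers were present too, with sums of 648 to 799 RPKM in controls of steps 4 to 8 and 327 to 835 RPKM in controls of the other region. Markers of elongating spermatids, which include the protamines, summed to 17770 to 21100 RPKM in control tissue of steps 4 to 8, so transcripts of that list were abundant there too. Control replicate 1 of steps 1 to 3 and 9 to 16 stood apart, with a sum of 95960 RPKM for the elongating list against 21150 RPKM in replicate 2. Leydig cell markers summed to at most 1.28 RPKM in control tissue of steps 4 to 8 and to 8.60 to 85.0 RPKM in control tissue of steps 1 to 3 and 9 to 16.

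The start regions of 4 of the genes are shown because heat shock factors bind inverted repeats of GAA, and the genes differ in whether they hold them. The windows run from 250 bases before to 50 bases after the RefSeq start (build GRCm38.p6), 5′ to 3′ on the strand of the gene, and capitals mark each match to GAANNTTC or TTCNNGAA, which read the same on both strands and may overlap. Matches of this kind stood in 15.06% of all 32851 windows of that length in the table. A longer repeat, GAANNTTC followed by NNGAA or TTCNNGAA followed by NNTTC, stood in 0.6%. Hspa4l lies on chromosome 3 on the plus strand (window chr3:40745363-40745662), Hspa4 on chromosome 11 on the minus strand (chr11:53300430-53300729), Hsph1 on chromosome 5 on the minus strand (chr5:149636287-149636586) and Hspe1 on chromosome 1 on the plus strand (chr1:55087898-55088197).
Hspa4l: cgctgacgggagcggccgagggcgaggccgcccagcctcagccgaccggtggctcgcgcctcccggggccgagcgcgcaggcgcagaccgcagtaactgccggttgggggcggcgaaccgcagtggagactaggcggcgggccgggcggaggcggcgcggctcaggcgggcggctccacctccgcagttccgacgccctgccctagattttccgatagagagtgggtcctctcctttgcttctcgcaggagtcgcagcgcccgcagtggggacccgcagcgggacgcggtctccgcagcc
Hspa4: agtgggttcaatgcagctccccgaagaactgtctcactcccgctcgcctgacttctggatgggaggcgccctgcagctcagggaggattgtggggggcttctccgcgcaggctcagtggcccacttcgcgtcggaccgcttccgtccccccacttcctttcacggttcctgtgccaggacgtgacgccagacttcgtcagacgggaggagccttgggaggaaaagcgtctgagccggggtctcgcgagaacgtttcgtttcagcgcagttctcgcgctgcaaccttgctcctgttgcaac
Hsph1: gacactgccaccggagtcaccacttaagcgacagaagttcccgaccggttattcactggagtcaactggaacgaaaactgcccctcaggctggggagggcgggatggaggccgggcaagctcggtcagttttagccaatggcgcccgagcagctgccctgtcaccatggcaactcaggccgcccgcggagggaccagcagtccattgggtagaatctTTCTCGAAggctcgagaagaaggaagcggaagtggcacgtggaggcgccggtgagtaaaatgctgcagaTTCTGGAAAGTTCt
Hspe1: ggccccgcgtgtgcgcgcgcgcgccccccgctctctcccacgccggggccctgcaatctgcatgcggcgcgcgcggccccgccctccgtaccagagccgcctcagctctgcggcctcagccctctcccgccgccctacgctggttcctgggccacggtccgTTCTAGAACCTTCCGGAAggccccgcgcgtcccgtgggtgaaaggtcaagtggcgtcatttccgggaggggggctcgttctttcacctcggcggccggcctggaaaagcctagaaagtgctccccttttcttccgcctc

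Among the exchange factor genes, Hsph1 held 3 matches in the window shown, 1 of 2 overlapping windows in the table, with first bases at -33, 37 and 42 from the start, while the windows of Hspa4 and Hspa4l held 0. The Hspa4l window lies inside the GENCODE gene, which starts at 40744495, and bases before that start were not searched. The Hspe1 window held 3 overlapping matches from -89 to -79. One of 2 windows of its neighbour Hspd1, which is read in the opposite direction, held the same bases from -144 to -134 from its own start. The other window of Hspd1 and the windows of Hspa1l and Hspa2 held 0. All windows with matches among the members also held the longer repeat. A match describes letters only, and no match says only that these letters are not in this window. No windows of Hspa8, Hsp90aa1 and Hsp90ab1 were available, so these genes were not searched for the repeats.

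In knockout whole testis, 1 of the 9 chaperone genes fell, the germ cell form Hspa4l, to 72.2% of its control level. The other 8 did not pass the test. Hspa4l codes for an HSP110-type exchange factor, and male mice without it have reduced fertility. It lies on chromosome 3 from 40744495 to 40796103 (mm10, plus strand), a span of 51.6 kb with 21 merged exon blocks in GENCODE M21. It stood at 19.5, 23.4 and 23.1 RPKM in controls 1 to 3. It stood at 16.5, 16.4 and 14.7 RPKM in knockouts 1 to 3. Every knockout library was below every control library, and reads were plentiful, from 26217 to 59282 in each library. The means were 22.0 ± 2.14 and 15.9 ± 1.03 RPKM (SD, n = 3 each). On the log2 scale the knockout differed by -0.44 ± 0.10 (SE; 95% interval -0.67 to -0.21; limma adjusted p = 0.0447).

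Of all 8146 genes tested in whole testis, 2.04% were called lower, 4.11% higher and 6.15% in either direction. A count of 1 among 9 members is too low to be set apart from that background. The call of Hspa4l lay close to the threshold. With a block for replicate number it was adjusted p = 0.0505. It also ended without control 2, control 3, knockout 2 or knockout 3 (adjusted p = 0.145, 0.141, 0.136 and 0.196), with log2 differences of -0.39 to -0.52 over the 6 fits without 1 library. Knockout and control libraries did not overlap for 32.8% of all tested genes, and for 8.24% in the lower direction.

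The general relative Hspa4, on chromosome 11 from 53259814 to 53300457 (minus strand), did not pass the test in the same libraries. It stood at 9.44, 9.64 and 9.57 RPKM in controls and 9.81, 10.1 and 9.15 RPKM in knockouts. The log2 difference was 0.016 ± 0.07 (95% interval -0.15 to 0.19; adjusted p = 0.898). The ratio of Hspa4l to Hspa4, taken as reads per kilobase of summed exon length, was 1.23, 1.44 and 1.43 in controls and 1.00, 0.970 and 0.956 in knockouts. The genotypes did not overlap in this ratio in whole testis. It is given without a test, since both genes were chosen with earlier results known.

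**Figure D1:**
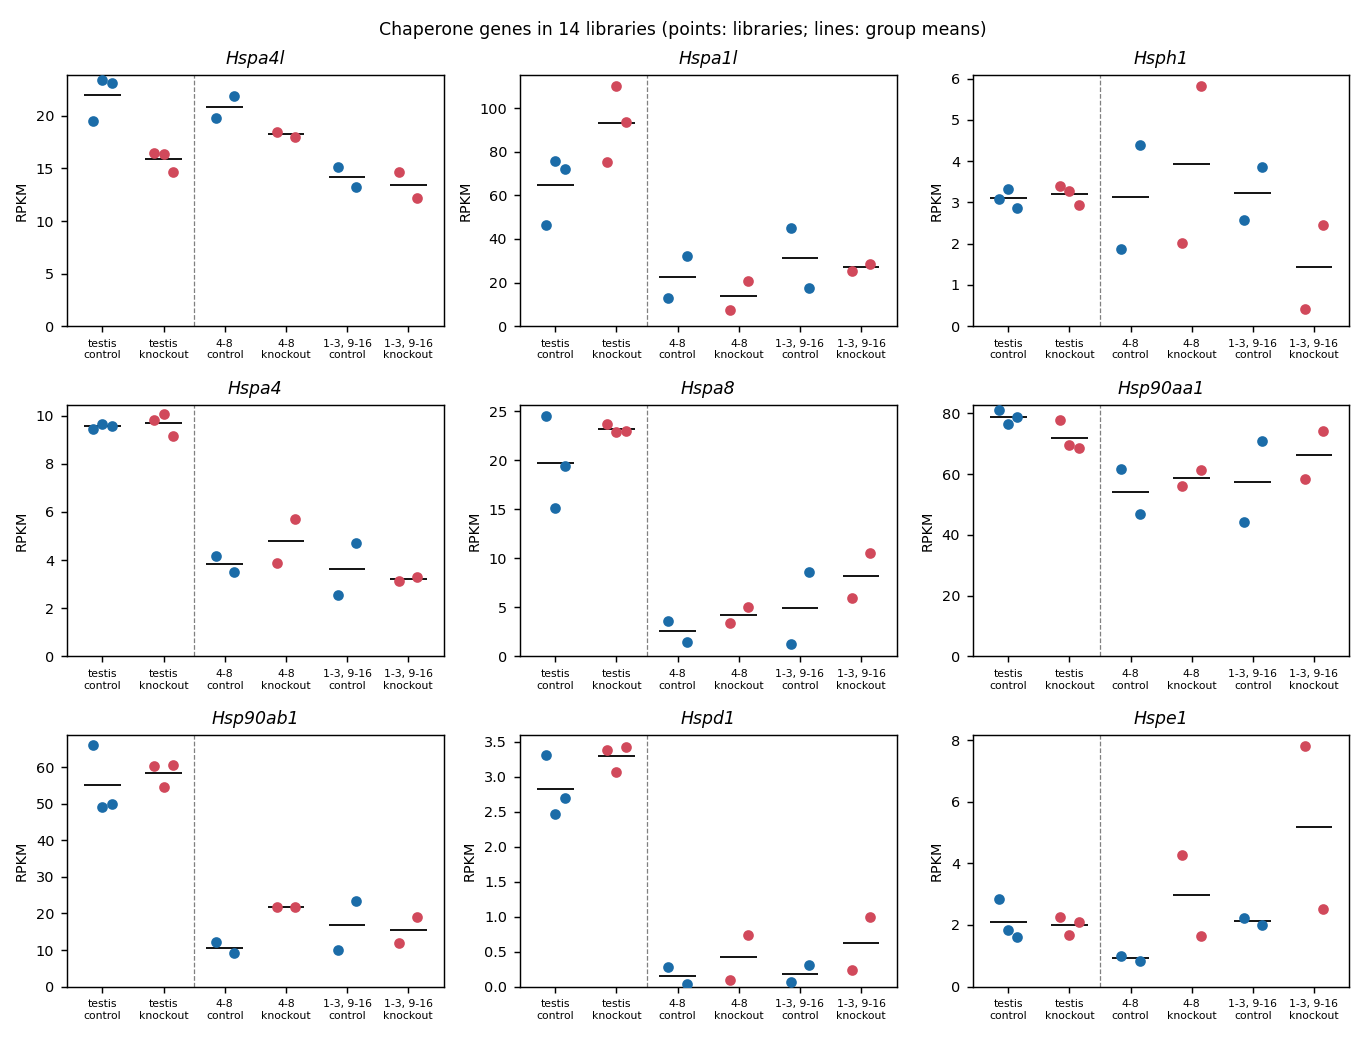
RPKM of the 9 chaperone genes in each library (points) with group means (lines), by tissue and genotype; the dashed line parts whole testis from captured tissue, whose library kits differ. Hspa4l lies at 14.7 to 16.5 RPKM in knockout whole testis, under all 3 control libraries.

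Hspa1l, the other germ cell form, was higher on average in knockout whole testis but did not pass the test. It lies on chromosome 17 from 34972703 to 34979284 (plus strand). It stood at 46.5, 75.5 and 72.2 RPKM in controls 1 to 3 and at 75.4, 110 and 93.8 RPKM in knockouts 1 to 3. Knockout 1 lay just under control 2, so the groups overlapped. The log2 difference was 0.53 ± 0.21 (95% interval 0.046 to 1.02; limma adjusted p = 0.144). Within each replicate number the knockout was higher, and with the replicate number as a block Hspa1l passed (SE 0.10, adjusted p = 0.0335). It also passed without both libraries numbered 1 (0.46 ± 0.11, adjusted p = 0.0206). The antisense gene Gm10501, from 34976899 to 34981788 on the minus strand, covers 2386 bases of the Hspa1l span. Its reads numbered 95% to 100.6% of those of Hspa1l in the 14 libraries, in libraries of either kit, so the table does not separate transcription of the 2 strands. Values of Hspa1l are therefore those of both genes.

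Among the general HSP70 and HSP90 genes, none passed in whole testis. Hspa8, the constitutive HSP70 of all cells, stood at 24.5, 15.1 and 19.4 RPKM in controls and 23.7, 22.9 and 23.0 RPKM in knockouts, with a log2 difference of 0.25 ± 0.16 (adjusted p = 0.306). Control 1 was the highest of the 6 libraries. Without it Hspa8 passed towards higher in knockouts (0.42 ± 0.11, adjusted p = 0.0472), and without control 2, the lowest, the difference was 0.09 ± 0.13 (adjusted p = 0.727). Hsp90aa1, the inducible HSP90 that mouse spermatocytes need to complete meiosis, stood at 76.4 to 81.0 RPKM in controls and 68.6 to 77.7 RPKM in knockouts (difference of -0.13 ± 0.10 in log2, adjusted p = 0.385). Hsp90ab1, the constitutive HSP90, stood at 49.2 to 66.0 and 54.6 to 60.5 RPKM (0.096 ± 0.13, adjusted p = 0.639). Hsph1, the stress-inducible exchange factor, stood at 2.88 to 3.33 and 2.93 to 3.39 RPKM, and the 95% interval of its log2 difference ran from -0.14 to 0.22.

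The mitochondrial pair Hspd1 and Hspe1, whose products form the folding chamber and its lid, lies head to head on chromosome 1. Hspd1 runs from 55077835 to 55088243 on the minus strand and Hspe1 from 55088132 to 55091307 on the plus strand, with 112 shared bases. Hspd1 stood at 3.32, 2.46 and 2.70 RPKM in controls and 3.38, 3.07 and 3.43 RPKM in knockouts, a log2 value of 0.17 ± 0.09 (adjusted p = 0.263). Control 1 lay among the knockouts, and without it Hspd1 passed towards higher (0.26 ± 0.07, adjusted p = 0.0476), while without control 2 the value was 0.10 ± 0.10 (adjusted p = 0.601). Hspe1 stood at 2.84, 1.83 and 1.62 RPKM in controls and 2.24, 1.68 and 2.11 RPKM in knockouts (-0.026 ± 0.15, adjusted p = 0.914). The median difference of the 9 members was 0.036, against 0.09 for all tested genes.

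**Figure D2:**
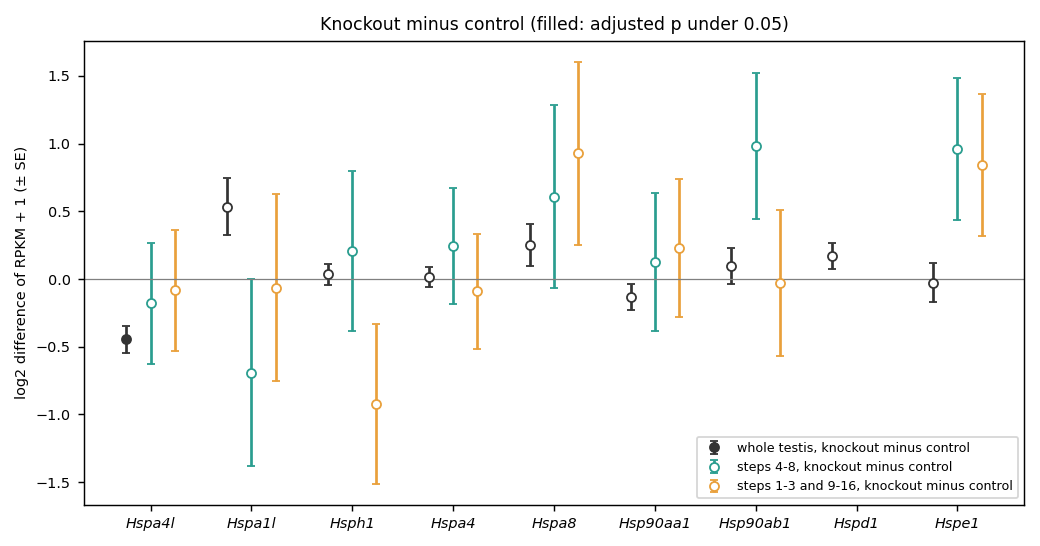
Log2 difference of RPKM + 1 between knockout and control (points, bars ± SE) for each member in whole testis and in the 2 captured regions; filled points passed an adjusted p of 0.05. The only filled point is Hspa4l in whole testis at -0.44, and Hspd1 was not tested in captured tissue.

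Cell type markers of whole testis are given beside these values. Of all tested genes, 4.11% were called higher and 6.15% in either direction, and 24.6% stood higher in knockouts without overlap. These shares count single genes, while the sums are of whole lists. Of 15 Sertoli cell markers 13 were tested and 2 were higher, Vim and Ctsl. The list summed to 157 to 233 RPKM in controls and 236 to 309 RPKM in knockouts, with none at 0. The 10 spermatocyte markers had 0 called and summed to 407 to 481 RPKM in controls and 460 to 540 RPKM in knockouts. The 10 round spermatid markers had 0 called, with sums of 422 to 498 and 469 to 642 RPKM. The 10 elongating spermatid markers also had 0 called, with sums of 7922 to 12870 and 6639 to 9230 RPKM. Leydig cell markers had 0 of 6 tested genes called, with sums of 86.0 to 143 and 64.6 to 355 RPKM. Peritubular cell markers, 0 of 3 tested genes called, summed to 15.7 to 17.8 RPKM in controls and 19.9 to 24.1 RPKM in knockouts, without overlap. Endothelial markers were below the filter and summed to 0.473 to 0.506 and 0.552 to 0.862 RPKM, also without overlap. Of 2 tested macrophage markers, H2-Ab1 was higher, and the list summed to 3.49 to 4.10 and 3.46 to 7.07 RPKM. Sums of spermatogonial and red blood cell markers were at most 6.48 and 1.54 RPKM and overlapped. The part of cell composition in the differences of Hspa4l and Hspa1l was not tested.

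In captured spermatids of steps 4 to 8, no member passed, and 0 of 7857 tested genes were called by limma (0%), with 285 at an unadjusted p under 0.05 and 0 called by limma voom on reads. Hspa4l stood at 19.8 and 21.9 RPKM in controls and 18.5 and 18.0 RPKM in knockouts. The genotypes did not overlap, as for 13.6% of all tested genes in this direction and 29% in either. The log2 difference of -0.18 ± 0.45 had a 95% interval of -1.18 to 0.82, wide enough to hold the whole testis difference and 0. Hsp90ab1 stood at 12.2 and 9.15 RPKM in controls and 21.9 and 21.8 RPKM in knockouts (0.98 ± 0.54, adjusted p = 1.00). Hspe1 stood at 1.00 and 0.845 against 4.26 and 1.66 RPKM (0.96 ± 0.52, adjusted p = 1.00). Hspe1 moved with its knockout libraries, to 0.47 without knockout 1 and 1.45 without knockout 2, while Hsp90ab1 ran from 0.79 to 1.17 without 1 library. These 2 genes did not overlap between genotypes in the higher direction, as did 15.3% of tested genes. Hspa1l ran against its whole testis order, with 13.1 and 32.3 RPKM in controls and 7.30 and 20.6 RPKM in knockouts (-0.69 ± 0.69, adjusted p = 1.00), but its groups overlapped and its interval reached from -2.25 to 0.87. The value was 0.0015 without knockout 1 and -1.38 without knockout 2. Sertoli cell markers summed to 20.6 to 47.5 RPKM in controls and 56.4 to 81.7 RPKM in knockouts here, with Amh at 0 reads in both genotypes. Elongating spermatid markers summed to 17770 to 21100 RPKM in controls and 9884 to 10190 RPKM in knockouts. Leydig cell markers summed to 1.28 and 0.380 RPKM in controls 1 and 2, and to 0.0956 and 23.6 RPKM in knockouts 1 and 2. The part of these lists in the members' values of steps 4 to 8 was not tested.

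In tissue of steps 1 to 3 and 9 to 16, again no member passed and 0 of 7857 genes were called by limma (0%), with 525 at an unadjusted p under 0.05 and 0 called by limma voom. Hspa4l stood at 15.2 and 13.3 RPKM in controls and 14.6 and 12.2 RPKM in knockouts, and the groups overlapped (-0.083 ± 0.45, adjusted p = 0.985). Hspe1 was again higher in both knockout libraries, at 7.82 and 2.53 RPKM against 2.24 and 2.00 RPKM (0.84 ± 0.52, adjusted p = 0.818), as was the case for 20% of tested genes (35.7% did not overlap in either direction). Hsph1 was lower in both, at 0.407 and 2.45 RPKM against 2.58 and 3.86 RPKM (-0.92 ± 0.59, adjusted p = 0.818), as were 15.7% of genes. Hspa8 differed by more between its control libraries, at 1.28 and 8.65 RPKM, than between the genotype means. The low value is that of control 1, the library with the highest sum of elongating spermatid markers. Other lists differed between these controls too. Control 1 was below control 2 in sums of Sertoli (30.9 against 91.9 RPKM) and Leydig cell markers (8.60 against 85.0 RPKM). It was above control 2 in sums of spermatocyte (835 against 327 RPKM) and macrophage markers (18.6 against 3.32 RPKM). Control 1 also held the highest captured level of Hspa1l, 45.1 RPKM against 17.3 RPKM in control 2. Without control 1, whose place is then taken by a single control assumed to vary like the other groups, the log2 differences were 0.89 ± 0.67 for Hspe1, -1.14 ± 0.76 for Hsph1 and 0.0065 ± 0.47 for Hspa4l. Knockout 1 weighed more on the first 2 genes, since it held the high Hspe1 value and the low Hsph1 value. Without knockout 1 the differences were 0.18 for Hspe1 and -0.27 for Hsph1, and without knockout 2 they were 1.5002 and -1.57. Without control 1, the difference of Hspa8 went from 0.93 ± 0.68 to -0.11 ± 0.58. That of Hspa1l went from -0.063 ± 0.69 to 0.60 ± 0.76, and neither gene was called in either fit. Without control 2 the differences of Hspa8 and Hspa1l were 1.97 and -0.73, also with no call. In this region elongating spermatid markers summed to 21150 to 95960 RPKM in controls and 12360 to 29370 RPKM in knockouts. Round spermatid markers summed to 563 to 757 RPKM in controls and 454 to 513 RPKM in knockouts, although their median log2 difference was 0.636. Spermatocyte markers, 0 of 10 called, summed to 835 and 327 RPKM in controls and 844 and 949 RPKM in knockouts, with a median log2 difference of 0.628 against 0.043 for all tested genes. Genotypes overlapped in the sums of elongating markers and not in those of round spermatid and spermatocyte markers. The part of these lists in the members' values was not tested. Hspd1, tested in neither region, stood at 0.033 to 0.997 RPKM in the 8 captured libraries, on 15 to 609 reads. The difference of the knockout effects between the regions passed for 0 members and 0 of 7857 genes by limma and by limma voom (223 at an unadjusted p under 0.05). For Hspa4l it was 0.096 ± 0.63, and for Hsp90ab1 and Hsph1 it was -1.01 ± 0.76 and -1.13 ± 0.84 (adjusted p = 1.00 each).

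Between the regions, Hspa4l was the member that stood lower in steps 1 to 3 and 9 to 16 in every library of both genotypes. Its control libraries held 19.8 and 21.9 RPKM in steps 4 to 8 against 15.2 and 13.3 RPKM, a log2 difference of -0.52 ± 0.45 (adjusted p = 0.708), or -0.61 ± 0.47 without control 1 of steps 1 to 3 and 9 to 16. Its knockout libraries held 18.5 and 18.0 against 14.6 and 12.2 RPKM (-0.42 ± 0.45, adjusted p = 0.746). Regions did not overlap in this direction for 20.6% of tested genes in controls and 20.9% in knockouts, and no gene was called by limma or limma voom (0% in each, with 832 and 816 genes at an unadjusted p under 0.05). The share of genes that did so in both genotypes is not given here. In knockouts Hspa4 and Hsp90ab1 also stood lower in that region, and Hspa1l and Hspa8 higher, without overlap, as did 24.9% of genes in the higher direction and 45.9% in either. In controls Hspe1 alone of the members stood higher without overlap, as did 20.2% of genes (40.7% in either direction).

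Levels of the members ran over a wide range in every group. They are given in reads per kilobase of summed exon length, divided by the reads recovered in genes of the library. RPKM rests on a different total, for example 49051200 against 40073769 recovered reads in control 2 of steps 1 to 3 and 9 to 16. Hsp90aa1 led control whole testis with 251, followed by Hspa1l with 178, Hsp90ab1 with 104, Hspa4l with 99.3 and Hspa4 with 72.5. Hspa8 followed with 19.9, then Hspd1 with 11.5, Hsph1 with 9.72 and Hspe1 with 4.67. Neighbours whose libraries overlapped were Hsp90ab1 with Hspa4l and Hspd1 with Hsph1. In knockout whole testis Hspa1l and Hsp90aa1 changed places, at 248 and 222, with overlapping libraries, and Hspa4 and Hspa4l did so at 71.2 and 69.5, also overlapping. In control tissue of steps 4 to 8 the order was Hsp90aa1 (185), Hspa4l (100.3), Hspa1l (66.3), Hspa4 (31.1), Hsp90ab1 (21.6), Hsph1 (10.4), Hspa8 (2.75), Hspe1 (2.20) and Hspd1 (0.690) on that scale, and only Hspa8 and Hspe1 overlapped. In control tissue of steps 1 to 3 and 9 to 16 Hsp90aa1 (203) was followed by Hspa1l (89.4), Hspa4l (69.4), Hsp90ab1 (35.6) and Hspa4 (30.7), and libraries overlapped between Hspa1l and Hspa4l and between Hsp90ab1 and Hspa4. In knockouts Hsp90aa1 led both captured regions, at 198 and 224, and Hspa4l ranked 2 in steps 4 to 8 (87.5) and 3 in the other region (63.9).

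**Figure D3:**
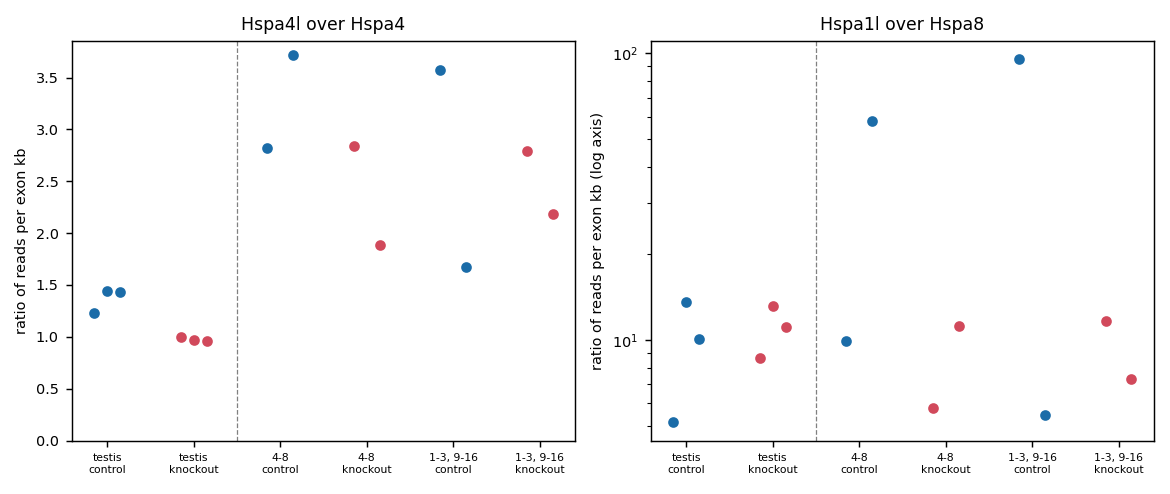
Ratio of the germ cell form to its general relative in each library (points), in reads per kilobase of summed exon length; the left axis is linear and starts at 0, the right axis is logarithmic. In whole testis, Hspa4l over Hspa4 is 1.23 to 1.44 in controls and 0.956 to 1.00 in knockouts, while Hspa1l over Hspa8 overlaps between genotypes.

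Per kilobase of summed exon length, the germ cell forms stood above their general relatives in all 8 captured libraries. The ratio of Hspa4l to Hspa4 ran from 1.68 to 3.72 in the 8 captured libraries. It was 2.82 and 3.72 in controls of steps 4 to 8, 2.84 and 1.88 in knockouts there, 3.57 and 1.68 in controls of steps 1 to 3 and 9 to 16, and 2.79 and 2.18 in knockouts there, so genotypes overlapped in both regions. The ratio of Hspa1l to Hspa8 was 5.16, 13.6 and 10.1 in control and 8.63, 13.1 and 11.1 in knockout whole testis. In captured tissue it ran from 5.45 to 95.5, with both ends in the 2 control libraries of steps 1 to 3 and 9 to 16. Controls of steps 4 to 8 held 9.93 and 58.1. The captured knockout libraries, at 5.80 to 11.7, lay inside the range of the whole testis libraries. Such ratios depend on the length used and on reads shared with copies. For Hspa8 the summed exons (4.301 kb) reach beyond the span in which reads were counted (4.217 kb). This lowers its level per exon kilobase and raises the ratio of Hspa1l to Hspa8. The values of Hspa1l also hold the reads of Gm10501. Windows of 50 bases of the longest coding transcript that also occur in transcripts of other genes made up 74.8% for Hspa8, 71.4% for Hspa1l (through Gm10501), 58.5% for Hsp90aa1, 44.8% each for Hspd1 and Hspe1, 4.5% for Hsp90ab1, 0.6% for Hspa4l and 0% for Hspa4 and Hsph1. How reads that match several places were counted is not given in the sources used here, so levels of Hspa8, Hsp90aa1, Hspd1 and Hspe1 are uncertain to that extent.

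The genes whose pattern over the 14 libraries was most like that of a germ cell form were found among 6477 genes tested in both tissues. The measure was the root mean square difference of log2(RPKM + 1), with each gene centred within whole testis and within captured tissue. For Hspa4l they were Snap23 (0.155), Ccnyl1 (0.158) and Pvrl3 (0.16), where the median gene was at 0.506. For Hspa1l they were its antisense neighbour Gm10501 (0.021), Otub2 (0.159) and BB031773 (0.178), where the median gene was at 0.704. Gm10501 holds nearly the same reads as Hspa1l, so its first place was fixed in advance and shows no likeness between separate genes.

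Hspa2, the HSP70 of spermatocytes, stood higher in knockouts in all 3 tissues without passing the test. Whole testis held 377, 327 and 316 RPKM in controls and 378, 384 and 390 RPKM in knockouts (0.18 ± 0.12 in log2, adjusted p = 0.342). Steps 4 to 8 held 116 and 114 RPKM in controls and 167 and 174 RPKM in knockouts (0.56 ± 0.48, adjusted p = 1.00). Steps 1 to 3 and 9 to 16 held 92.0 and 96.5 RPKM in controls and 143 and 117 RPKM in knockouts (0.45 ± 0.48, adjusted p = 0.883). No knockout library overlapped a control library in any tissue, by a narrow margin in whole testis. Taken tissue by tissue, 24.6%, 15.3% and 20% of tested genes stood so in the higher direction. The share that did so in all 3 tissues is not given here. The sum of spermatocyte markers was also higher in both knockout libraries of steps 1 to 3 and 9 to 16 (844 and 949 RPKM against 835 and 327 RPKM), while it overlapped between genotypes in steps 4 to 8 (648 to 799 RPKM in controls, 777 to 778 RPKM in knockouts) and in whole testis. Its part in the Hspa2 values was not tested. In whole testis the difference turned to -0.05 under quantile normalization.

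Other chaperone genes were followed as 9 lists. In whole testis 6 of their 104 different tested genes were called (5.77%), a share near the 6.15% of all tested genes. HSP90 co-chaperones had 2 higher and 1 lower of 16 tested. Fkbp8, an anchored co-chaperone of mitochondria, rose from 10.98 ± 1.07 to 15.9 ± 1.80 RPKM (SD, n = 3 each; log2 difference 0.50 ± 0.11, limma adjusted p = 0.0418). Unc45a, a chaperone of myosin, rose from 1.23 ± 0.179 to 1.77 ± 0.0309 RPKM (adjusted p = 0.0461). Fnip1, which slows the ATP cycle of HSP90, fell from 1.80 ± 0.145 to 1.15 ± 0.208 RPKM (adjusted p = 0.0391). The median of the list was 0.103, against 0.09 for all tested genes.

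Of 38 tested J domain proteins, which hand clients to HSP70, Dnajc21 rose, from 4.06 ± 0.448 to 5.50 ± 0.141 RPKM (adjusted p = 0.0468), and the list's median was 0.077. The spermatid form Dnajb3 stood at 390.5 ± 16.4 and 546 ± 60.1 RPKM (0.48 ± 0.13, adjusted p = 0.0695). Of 5 tested small heat shock proteins Hspb1, which holds unfolded protein without ATP, rose from 3.51 ± 1.14 to 7.66 ± 2.17 RPKM (0.94 ± 0.22, adjusted p = 0.0465), with a list median of 0.159. Of 16 tested genes of mitochondrial protein quality control, the protease gene Lonp1 rose from 1.90 ± 0.480 to 3.29 ± 0.490 RPKM (0.57 ± 0.13, adjusted p = 0.0461), with a median of 0.092. With the replicate number as a block Fkbp8, Hspb1 and Lonp1 lost their calls (adjusted p = 0.0574, 0.0595 and 0.0578). Without control 2, control 3, knockout 2 or knockout 3 in turn, none of the 6 genes was called. With libraries scaled to a common sum, the adjusted p of the 6 was 0.056 or higher.

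No gene was called in the other 5 lists. The other HSP70 genes had 0 of 6 called (median 0.025), with Hspa5, the HSP70 of the endoplasmic reticulum, at 131.5 ± 0.907 and 139 ± 12.9 RPKM. The stress-inducible Hspa1a and Hspa1b stayed below 0.62 RPKM in all whole testis libraries and were not tested. The other HSP90 genes had 0 of 2 (median 0.038), with Hsp90b1, the HSP90 of the endoplasmic reticulum, at 49.3 ± 0.417 and 49.2 ± 4.79 RPKM. HSP70 exchange factors and regulators had 0 of 9 (median 0.17), with Bag5 at 139 ± 10.1 and 177 ± 15.6 RPKM. TRiC, the cytosolic folding chamber for actin and tubulin, had with prefoldin 0 of 12 (median 0.076), and its subunit Tcp1 stood at 163 ± 2.39 and 171 ± 7.73 RPKM. Heat shock transcription factors had 0 of 5 (median 0.052), with Hsfy2 at 53.4 ± 6.23 and 63.3 ± 7.97 RPKM. In captured tissue 0 genes of these lists were called in either region, and some genes called in whole testis stood the other way there. In steps 4 to 8 the means of Fnip1 were 0.858 RPKM in controls and 1.32 RPKM in knockouts, and those of Fkbp8 were 5.07 and 4.11 RPKM, both without overlap, as for 15.3% and 13.6% of all tested genes in these directions. In steps 1 to 3 and 9 to 16 those of Dnajc21 were 2.25 and 1.52 RPKM, while Hspb1 stood higher in knockouts as in whole testis (3.67 and 7.44 RPKM), both without overlap, as for 15.7% and 20% of genes. The other captured values of these 4 genes overlapped, as did those of Unc45a and Lonp1.

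**Figure D4:**
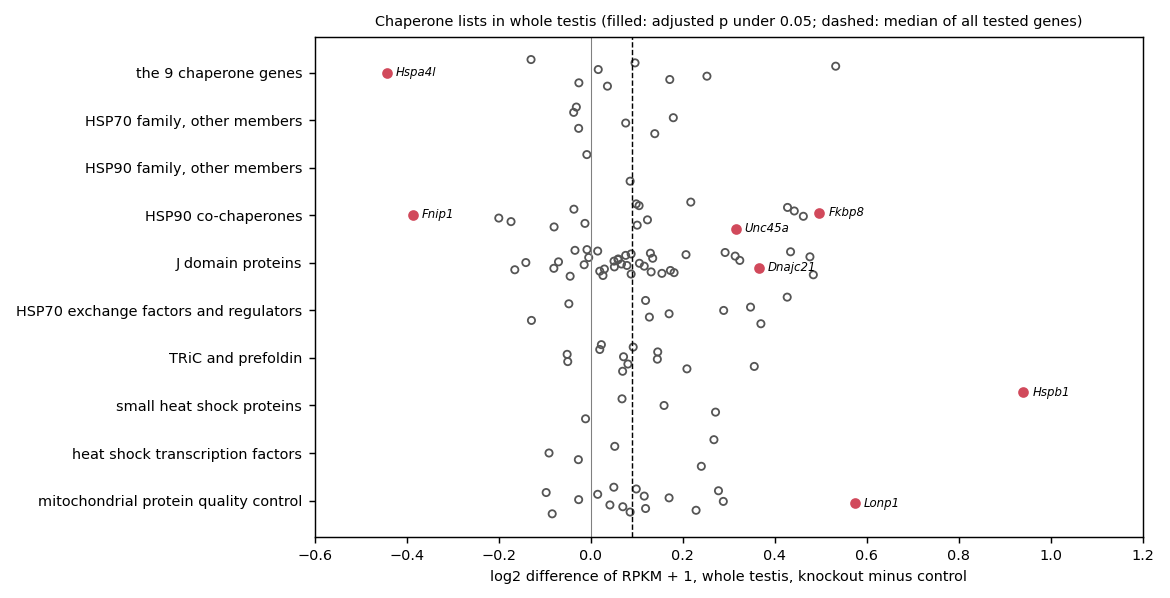
Log2 difference of RPKM + 1 between knockout and control whole testis for the tested genes of each chaperone list (points; filled where the adjusted p was under 0.05, with the gene named), with the median of all tested genes as a dashed line. Besides Hspa4l at -0.44, the filled points are Fnip1 on the lower side and Unc45a, Fkbp8, Dnajc21, Lonp1 and Hspb1 on the higher side.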

How the data were processed

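Expression was measured by RNA sequencing in 14 mouse libraries. The labels' protocols name the NEBNext Ultra Directional kit for whole testis and SMART-seq2, which does not mark strand, for captured tissue. The authors deposited 1 table of log2 RPKM values, recognised from the values, and per the submitters' processing notes the tools were HISAT2 2.1.0, Trim Galore 0.4.0 and FastQC, and the build was mm10. For counting, the annotation and the strand setting the sources used here give nothing. The length behind RPKM was the whole gene span, and genes without reads held the value of 0.9 read. Whole reads were recovered with these spans: 99.99% of values came within 0.05 reads of a whole number, and chi-square per gene between replicates was 10.4 to 535.3, so no replicates agreed within sampling noise.

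Comparisons used limma 3.58.1 (R 4.3.3) with an intensity trend, fitted to log2(RPKM + 1) after the deposited log2 values were raised back to RPKM (the plan had assumed RPKM). Whole testis had its own fit over genes that reached 1 RPKM in 3 or more libraries, and the 8 captured libraries shared 1 fit over genes that did so in 2 or more. Fold changes on this scale understate the change of low genes. Calls are Benjamini-Hochberg adjusted p under 0.05 over all genes tested, two-sided. The labels do not tie libraries to animals, so p-values measure the spread between these libraries, which may be in part technical. Exon lengths and gene ends came from GENCODE M21, and start windows from RefSeq. Reads per exon kilobase keep any reads in introns. The scripts were tested on simulated data. In whole testis, deviations from the group means correlated between control and knockout libraries of the same number. The values were 0.329, 0.362 and 0.148 for numbers 1, 2 and 3, each over 0.1. The main fit did not pair libraries by these numbers. Only the replicate block, an alternative, did so. Pairs of unequal number ran from -0.442 to 0.299, and control 3 correlated better with knockout 2 (0.299) than with knockout 3 (0.148), so the pairing is uncertain for number 3. The labels give no reason for it. The members, lists and tests were chosen with earlier results of these data known. Named genes were Tsga8, the members, Hspa2, the called genes of each list and otherwise among its 2 most abundant, and the 3 genes most like each germ cell form.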

Additional observations from a re-analysis of the deposited data

How the results depend on the processing

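Over 689 alternative values of the 49 member differences, 677 stayed on the same side of the threshold, 6 lost a call and 6 gained one, and no called difference changed sign. Differences without a call changed sign 60 times. Alternatives left out 1 library each (with the genes tested held fixed) or both libraries numbered 1, used pseudocounts of 0.1 and 4, no filter, a minimum of 5 for the mean RPKM, a common sum, median centring, quantile normalization, limma voom on recovered reads, or a replicate block. Hspa4l kept a negative difference in whole testis in all 16 alternatives (-0.64 to -0.39). Its adjusted p ran from 0.00674 to 0.196. In whole testis the count of members called, 1, was 0 without a filter (Hspa4l at adjusted p = 0.0926, with more genes to adjust for), 0 to 3 without 1 library, and 4 without both libraries numbered 1. The count of all genes called, 501 (335 higher and 166 lower), was 171 with all genes kept, 216 with a minimum mean RPKM of 5, 250 with a common sum (108 higher, 142 lower), 76 to 1531 without 1 library and 2997 without both libraries numbered 1. It was 504 with median centring (194 higher, 310 lower), 373 with quantile normalization (157 higher, 216 lower) and 631 with limma voom (286 higher, 345 lower). The median of all genes, 0.09, moved to 0.001 with a common sum. With the replicate block, 740 genes were called in whole testis, and the call moved from Hspa4l to Hspa1l. In captured tissue, where libraries share only a number, the replicate block called 0 members and 0 genes. In steps 4 to 8 the count of 0 genes became 1, Tsga8, both with the minimum mean RPKM of 5 and with median centring. The median of all genes in the genotype comparisons there moved from 0.013 to 0.128 with a common sum, and in the other region from 0.043 to 0.183. All other counts of members or genes called in captured tissue stayed at 0, leaving out each library included.

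Lengths were varied too. With the longest principal transcript as length, chosen after seeing the data, the median ratio of Hspa1l to Hspa8 was 5.62 in place of 10.1 in control and 6.16 in place of 11.1 in knockout whole testis, and 5.28 in place of 9.49 in knockouts of steps 1 to 3 and 9 to 16 (the summed exons of Hspa8 span 4301 bases and the principal transcript 2394). The median ratio of Hspa4l to Hspa4 in knockout whole testis was 1.01 in place of 0.970. With that length Hspa1l ranked 2 in place of 1 in knockout whole testis, 5 in place of 4 in knockouts of steps 4 to 8 and 3 in place of 2 in knockouts of the other region, and Hspa4l ranked 4 in place of 5 in knockout whole testis and 2 in place of 3 in knockouts of steps 1 to 3 and 9 to 16. By deposited RPKM, Hspa1l ranked 2 in place of 3 in controls of steps 4 to 8, and Hspa4l ranked 3 in place of 2 in both genotypes of steps 4 to 8 and 4 in place of 3 in both genotypes of the other region. Depth limits Hspd1, which rested on as few as 15 reads in a captured library.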
